A study of Mus musculus with 35 samples.

Results

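The genes described here encode the replication-dependent core histones and the linker histones of the mouse. They were taken by symbol from a table of fragment counts for 24480 genes, as every row whose symbol begins with Hist1h to Hist4h or with H1f and a digit, together with H1foo. The rule found 71 genes, 8 for H1, 19 for H2A, 19 for H2B, 12 for H3 and 13 for H4, and 70 of them had a count in at least 50% of the samples of some group, the exception being Hist1h2br. On GRCm38, 55 of the 71 lie on chromosome 13, 10 on chromosome 3, 3 on chromosome 11, 2 on chromosome 6 and 1 on chromosome 15. All 71 matched a RefSeq gene, 2 of them (Hist1h2al and Hist3h2bb-ps) annotated as transcribed pseudogenes, and 65 were counted over 1 exon.

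RNA of single wild-type (WT) C57BL/6NRj embryos was sequenced after cytoplasmic injection of either nuclease-free water or in vitro transcribed Kdm5b-yfp mRNA at about 1150 ng/µl, which encodes the H3K4 demethylase KDM5B with a fluorescent tag. The 4 groups were 10 water-injected control zygotes, 10 Kdm5b-injected zygotes, 9 water-injected control 2C (2-cell) samples and 6 Kdm5b-injected 2C samples. All were collected 5 to 6 h after injection, the zygotes 17 h after ovulation and the 2C embryos 5.5 to 8 h after division, stages that the study placed in late S/G2 phase and in late S phase. Of the 2C samples, 6 controls and 5 Kdm5b samples were intact single embryos, and the others held blastomeres pooled from 2 or 3 partly lysed embryos. The 2C embryos came from zygotes that had been cryopreserved and thawed, and the libraries of the stages were made on separate days. Stage, cell cycle phase, thawing and library day thus cannot be told apart in any comparison of 2C embryos with zygotes.

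Core histones form the nucleosome as pairs of H2A, H2B, H3 and H4, and the linker histone H1 binds the DNA where it enters and leaves. Replication-dependent histone genes are clustered, mostly lack introns and give mRNAs that end in a conserved stem-loop instead of a poly(A) tail. The stem-loop is bound by SLBP, and these mRNAs accumulate in S phase. Oocytes store histone mRNAs and carry an oocyte linker histone, H1foo, which is replaced by somatic H1 after fertilisation.

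The stem-loop that defines this mRNA class was searched in the GENCODE M21 transcripts, on the sense strand, as a perfect stem of 6 base pairs that opens with GG and closes with CC, around a loop of 4 bases that opens with TT. It was present in 44 of the 71 genes, against 130 of 21901 protein-coding genes (0.594%). By type it was found in 4 of 8 H1, 11 of 19 H2A, 10 of 19 H2B, 8 of 12 H3 and 11 of 13 H4 genes. The 44 genes used 6 different sequences, of which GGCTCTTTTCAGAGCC was the commonest, in 26 genes. In 35 of the 44, the annotated transcript ran on for over 30 bases after the stem-loop. The median over the 44 was 112.5 bases and the highest 4884, so the element is often not the end of the transcript model. Stem-loops of some members described further on are printed here to show what this element looks like. They have 5 flanking bases on each side and are DNA letters of the sense strand, with stem and loop in capitals. The fixed letters of the search set part of their likeness.
Hist1h2bk: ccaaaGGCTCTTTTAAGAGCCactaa
Hist1h2bj: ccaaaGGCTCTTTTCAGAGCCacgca
Hist1h2ac: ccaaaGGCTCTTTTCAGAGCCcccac
Hist2h2ac: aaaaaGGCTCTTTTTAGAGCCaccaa
Hist1h3f: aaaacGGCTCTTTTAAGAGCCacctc
Hist1h4c: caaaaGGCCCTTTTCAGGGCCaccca
Hist4h4: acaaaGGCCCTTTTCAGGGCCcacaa
Hist1h1c: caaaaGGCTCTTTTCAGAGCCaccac
No such stem-loop was found in the annotated transcripts of H1foo, H1f0, Hist1h1a, Hist1h1b, Hist1h2aa or Hist1h2ba, which says only that these letters are not in those transcript models.

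Levels are given as TPM (length-normalised transcript shares that sum to the same total in every sample), computed from the deposited counts and exon lengths after the Kdm5b row had been removed. Total counts lay between 8705584 and 17797581 per sample, and Kdm5b itself took 2.30 to 10.4% of the counts in injected zygotes and 8.27 to 15.8% in injected 2C samples. All 6 oocyte and early embryo markers were detected in every group. The 5 markers of the 2-cell embryo summed to 2.06 to 25.8 TPM in zygotes and 65.4 to 427 TPM in 2C samples, and Tdpoz4 among them was at 0 in all zygotes. Markers of cumulus and granulosa cells summed to at most 21.3 TPM in any sample, with all 6 detected in every group except Ptx3, which was at 0 in control 2C samples. The protamine and transition protein genes of sperm summed to at most 68.1 TPM, with Tnp2 at 0 in all samples, Tnp1 at 0 in control zygotes and Prm1 at 0 in control 2C samples.

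Cluster histone mRNA was more abundant in 2C embryos than in zygotes for every histone type, while H1foo was less abundant. The 69 genes without H1foo and H1f0 made up a median of 1.01% of all TPM in control zygotes, 1.15% in Kdm5b zygotes, 1.98% in control 2C samples and 2.21% in Kdm5b 2C samples. Summed H2A had a median of 1183 TPM in control zygotes and 2658 TPM in control 2C samples, H2B 1914 and 3498 TPM, H3 582 and 1467 TPM and H4 1689 and 4097 TPM. These ratios of medians were 2.25, 1.83, 2.52 and 2.42 in turn. In the Kdm5b groups the corresponding ratios were 1.83, 1.90, 2.22 and 1.97. The H1 genes of the clusters had ratios of 1.67 in both arms, and these sums are descriptions with no test of their own. Short genes, meaning genes that are not histone members and have at most 600 bases of exon, also had higher sums in 2C samples. Their median sum was 33500 TPM in control zygotes and 63790 TPM in control 2C samples. In the Kdm5b groups it was 34651 and 61640 TPM. Whether the histone sums rose differently from those of short genes was not tested. A zygote is a single cell, while in the bulk RNA of a 2C sample more cells with a transcript and more transcript per cell cannot be told apart. TPM gives shares of the sequenced RNA, not amounts per embryo.

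**Figure D1:**
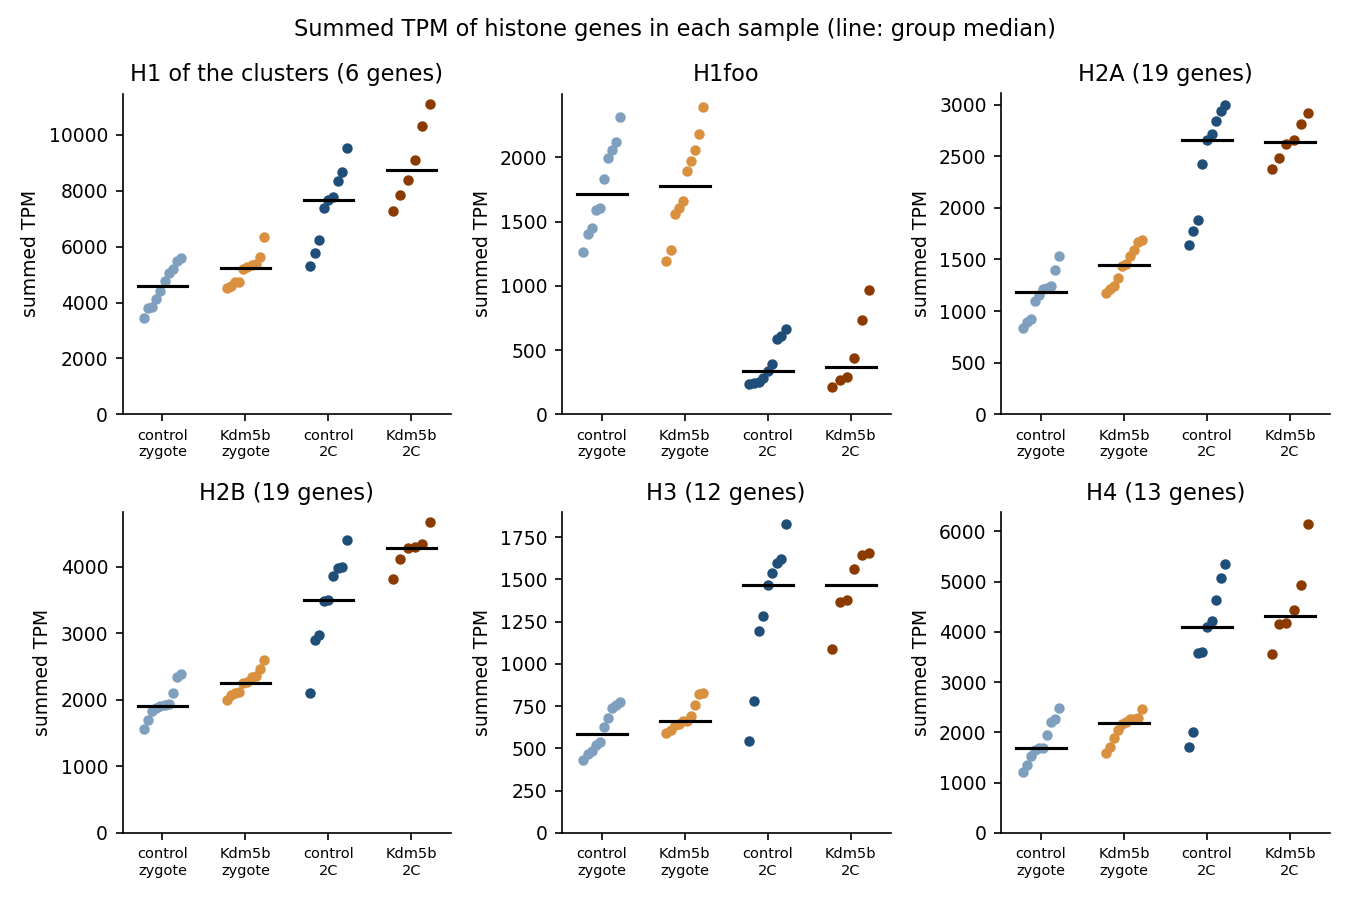
Summed TPM (y axis, linear from 0) of the H1 genes of the clusters, of H1foo and of H2A, H2B, H3 and H4 in each of the 35 samples, by group on the x axis, with points sorted by value within a group and a line at the group median. The 2C medians are above the zygote medians in every panel except that of H1foo, and the H3 and H4 panels show 2 control 2C samples within the range of the zygotes.

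The 2 control 2C samples with the lowest core histone totals were replicates 2 and 3, with 7155 and 6291 TPM, while the other 7 held 9713 to 14297 TPM. Control zygotes held 4049 to 6792 TPM, so replicate 3 overlapped them. Control 2C replicates 1 to 3 carry index numbers 85 to 87, and replicates 4 to 9 carry 89 to 95. Index numbers were read from the sample labels, where the number follows the letter U. Index sets were formed here as runs of 8 consecutive numbers, so that 85 to 87 and 89 to 95 fall in different sets. The study names an index kit but no such sets, so whether they match a step of library handling is not known. Among genes that are not histone members and have at most 600 bases of exon, the summed share of counts was 0.476 to 0.487% in replicates 1 to 3 and 0.694 to 0.856% in replicates 4 to 9. Replicates 2 and 3 thus share their index set and low short gene share with replicate 1, whose core histone total of 11357 TPM lay within the range of replicates 4 to 9, and the part of either in the histone level was not tested.

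H1foo, the linker histone of the oocyte, was lower in 2C embryos than in zygotes. It measured 1266 to 2316 TPM in control zygotes, with a median of 1717, and 234 to 661 TPM in control 2C samples, with a median of 336. The groups did not overlap. The log2 fold change was -2.07 ± 0.19 (SE), with an adjusted p of 1.76e-09 (edgeR quasi-likelihood test, Benjamini-Hochberg over all genes), the smallest among the 52 members tested. After Kdm5b injection, H1foo measured 1196 to 2388 TPM in zygotes and 209 to 970 TPM in 2C samples, again without overlap, and the log2 fold change was -1.78 ± 0.25 (edgeR adjusted p = 1.52e-06). H1foo lies at chr6:115944931-115950242 on the plus strand and is counted over 5 exons, the only one of these linker histone genes with several exons in the table.

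Hist1h1a, which encodes the somatic linker histone H1.1, was the most abundant member in every group. Its level was 3230 to 5325 TPM in control zygotes, with a median of 4311, and 4807 to 9156 TPM in control 2C samples, with a median of 7139. In 8 of 9 control 2C samples it was above the highest control zygote. The log2 fold change was 0.78 ± 0.11 (edgeR adjusted p = 1.88e-06), which passed the p threshold and not the fold threshold of 1. After Kdm5b injection the difference was 0.91 ± 0.09 (edgeR adjusted p = 6.27e-09), and the lowest 2C sample, at 6902 TPM, was above the highest zygote, at 5813 TPM. Hist1h1a made up 94.3% of the mean TPM of the 6 cluster H1 genes in control zygotes and 94.1% in control 2C samples.

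Taking all 8 linker histone genes as the whole, H1foo held 27.2% ± 4.5 (SD, n = 10) of the H1 TPM in control zygotes and 5.10% ± 2.3 (SD, n = 9) in control 2C samples. Hist1h1a held 66.2% ± 4.4 (SD, n = 10) and 86.4% ± 3.6 (SD, n = 9). In Kdm5b zygotes and Kdm5b 2C samples the share of H1foo was 24.9% ± 4.3 (SD, n = 10) and 5.31% ± 3.8 (SD, n = 6). The ranges of the H1foo share in zygotes, 21.2 to 37.2% in controls and 19.2 to 31.9% after Kdm5b, lay above those in 2C samples, 2.48 to 8.31% and 1.95 to 11.5%.

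**Figure D2:**
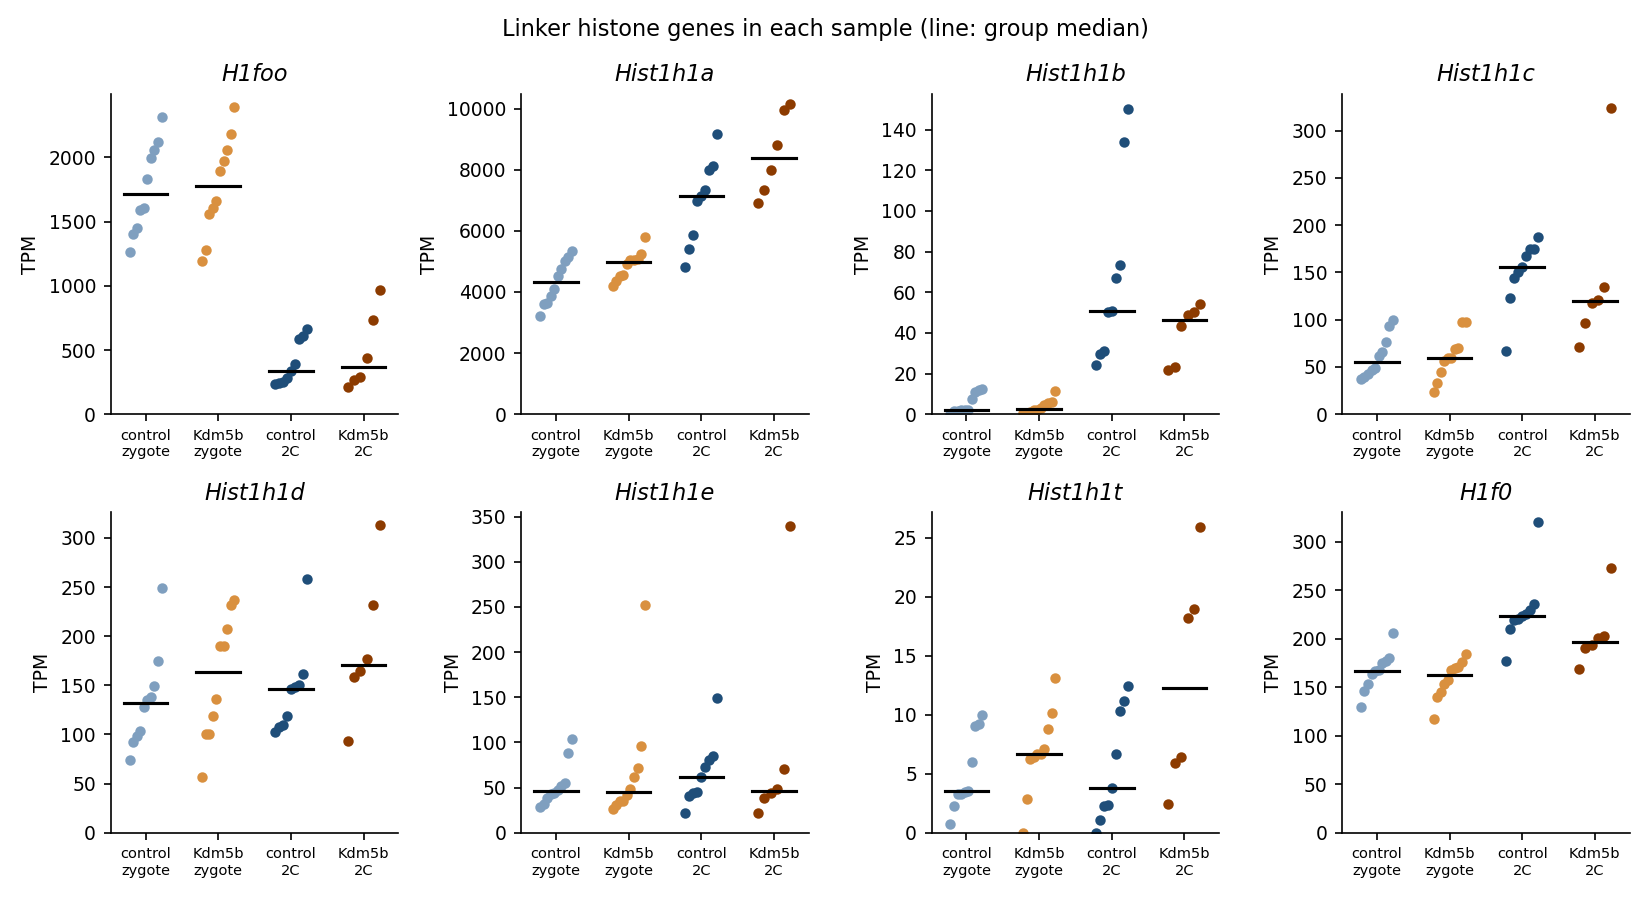
TPM (y axis, linear from 0) of the 8 linker histone genes in each sample, by group on the x axis, with a line at the group median. H1foo falls from medians of 1717 and 1776 TPM in zygotes to 336 and 365 TPM in 2C samples, while Hist1h1a and Hist1h1b are higher at 2C and Hist1h1d and Hist1h1e overlap between stages.

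Hist1h1b, which encodes H1.5, was nearly absent from zygotes and present in 2C embryos. Its range was 0 to 12.6 TPM in control zygotes, with a median of 2.27, and 24.4 to 150.3 TPM in control 2C samples, with a median of 50.7. No control 2C sample fell in the zygote range, and the log2 fold change was 3.76 ± 0.53. After Kdm5b injection it was 3.51 ± 0.44, from 0.578 to 11.3 TPM in zygotes to 21.8 to 54.2 TPM in 2C samples. In both arms Hist1h1b passed the filter on low counts only through the 2C samples where it was high, so these values are a description without a test.

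Hist1h1c, encoding H1.2, rose from 37.7 to 99.8 TPM in control zygotes to 66.7 to 187 TPM in control 2C samples, with a log2 fold change of 1.38 ± 0.20 (edgeR adjusted p = 2.27e-06). Only replicate 8 of the control 2C samples lay within the zygote range. After Kdm5b injection the difference was 1.33 ± 0.27 (edgeR adjusted p = 0.000186). H1f0, the replacement linker histone H1.0, measured 129 to 206 TPM in control zygotes and 177 to 321 TPM in control 2C samples, a log2 fold change of 0.55 ± 0.10 (edgeR adjusted p = 6.59e-05) that stayed under the fold threshold.

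The remaining linker histone genes passed no test between the stages. Hist1h1d, encoding H1.3, had medians of 132 and 146 TPM in control zygotes and control 2C samples and a log2 fold change of 0.19 ± 0.20. Hist1h1e, encoding H1.4, had medians of 46.0 and 61.8 TPM and a log2 fold change of 0.40 ± 0.28. Hist1h1t, the testis H1, was low, with medians of 3.50 and 3.78 TPM and a log2 fold change of 0.21 ± 0.62. Their edgeR adjusted p-values were 0.449, 0.242 and 0.806.

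The upstream sequences of the linker histone genes that changed differently are printed to show their elements. They are the 130 bases before the start in the RefSeq promoter table (GRCm38.p6), 5′ to 3′ on the gene's own strand, with matches on either strand in capitals. The TATA box was searched as TATAAA, the H1 box as AAACACA and the octamer as ATTTGCAT, and the CCAAT box by the letters of its name, so that matches on the other strand appear as their reverse complement.
H1foo at chr6:115944801-115944930 on the plus strand: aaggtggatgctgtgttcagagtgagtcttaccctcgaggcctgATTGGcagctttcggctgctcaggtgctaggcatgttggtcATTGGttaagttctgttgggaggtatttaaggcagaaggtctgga
Hist1h1a at chr13:23763538-23763667 on the plus strand: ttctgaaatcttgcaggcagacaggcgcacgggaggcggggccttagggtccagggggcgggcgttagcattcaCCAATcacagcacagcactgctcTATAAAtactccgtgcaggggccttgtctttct
Hist1h1b at chr13:21780626-21780755 on the minus strand: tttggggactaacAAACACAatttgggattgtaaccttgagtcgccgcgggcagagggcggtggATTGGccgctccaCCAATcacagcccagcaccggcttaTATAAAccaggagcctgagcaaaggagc
Motifs were counted from 250 bases before to 50 bases after each start, a window available for 64 of the 71 members. The H1 box letters were found in 5 of 8 H1 promoters, against 7.18% of 32851 promoters. The 5 were Hist1h1b, Hist1h1c, Hist1h1d, Hist1h1e and Hist1h1t, and they include genes that rose between the stages and genes that did not. The CCAAT box was found in 18 of 18 H2A, 16 of 16 H2B and 10 of 10 H3 promoters with an entry, in 3 of 12 H4 promoters, and in 37.4% of all promoters. The octamer was found in 7 of 18 H2A and 6 of 16 H2B promoters, in none of the H1 or H3 promoters, and in 1.74% of all promoters. These matches describe letters and not bound sites.

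Across all types, 52 of the 71 members passed the filter on low counts in the comparison of control 2C samples with control zygotes. Of these 52, 29 were called higher in 2C samples, meaning that edgeR gave an adjusted p below 0.05 with a fold change of more than 1 on the log2 scale, against 9.20% of all 11968 genes tested that were called higher. H1foo was the only member called lower, against 13.0% of all genes called lower. The median log2 fold change of the 52 was 1.18, and that of all genes 0.02. Of 205 short genes tested, 20.5% were called higher and 17.6% lower, with a median log2 fold change of 0.14. By type, 2 of 8 H1, 10 of 14 H2A, 7 of 12 H2B, 5 of 8 H3 and 5 of 10 H4 genes were called higher.

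A member with little RNA in zygotes needed 2C samples to pass the filter, which favoured genes that were higher there. Of the 17 such members, 12 were called higher. Of the 52 members, 35 passed on the control zygotes alone, and 17 of these were called higher and 1 lower. Of the 10472 genes of the whole table that passed in the same way, 5.51% were called higher and 14.7% lower. The median log2 fold change was 1.02 for the 35 members and -0.05 for these genes. Within index sets, the count of members called higher was 16 when control 2C replicates 1 to 3 (index numbers 85 to 87) stood against all control zygotes and 37 with replicates 4 to 9 (index numbers 89 to 95). Without control 2C replicates 2 and 3 it was 38. These fits held different numbers of 2C samples, which alone can change how many genes are called. The shares of all genes called in them are not given here, so the counts show no effect particular to histone genes. The control zygotes carry other index numbers (57 to 60, 65 to 68, 73 and 74), so index set and stage cannot be separated further.

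After Kdm5b injection, 34 of 52 members tested were called higher in 2C samples than in zygotes, against 10.5% of 12390 genes, and H1foo was called lower, against 16.0%. The median log2 fold change of the members was 1.17, and that of all genes 0.01. Of 224 short genes tested, 21% were called higher and 22.8% lower, with a median log2 fold change of 0.16. Of the 52, 40 passed on the zygotes alone, and 24 of these were called higher and 1 lower, against 7.68 and 17.3% of the 11454 genes that passed in the same way. This comparison shares no sample with that of the water controls. Of the members called higher, 26 were called in both, which is 89.7% of those called in the controls and 76.5% of those called after Kdm5b injection. Over all genes called higher, these shares were 70.8 and 59.9%. All 49 members tested in both had the same sign in both, as did 86.2% of the 11819 genes tested in both, and the difference from all genes was not tested. Of the members called higher, 12 in the controls and 10 after Kdm5b injection did not pass the filter on the zygotes alone. The filter favoured the direction of these members, and the agreement of the arms was not counted without them.

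**Figure D3:**
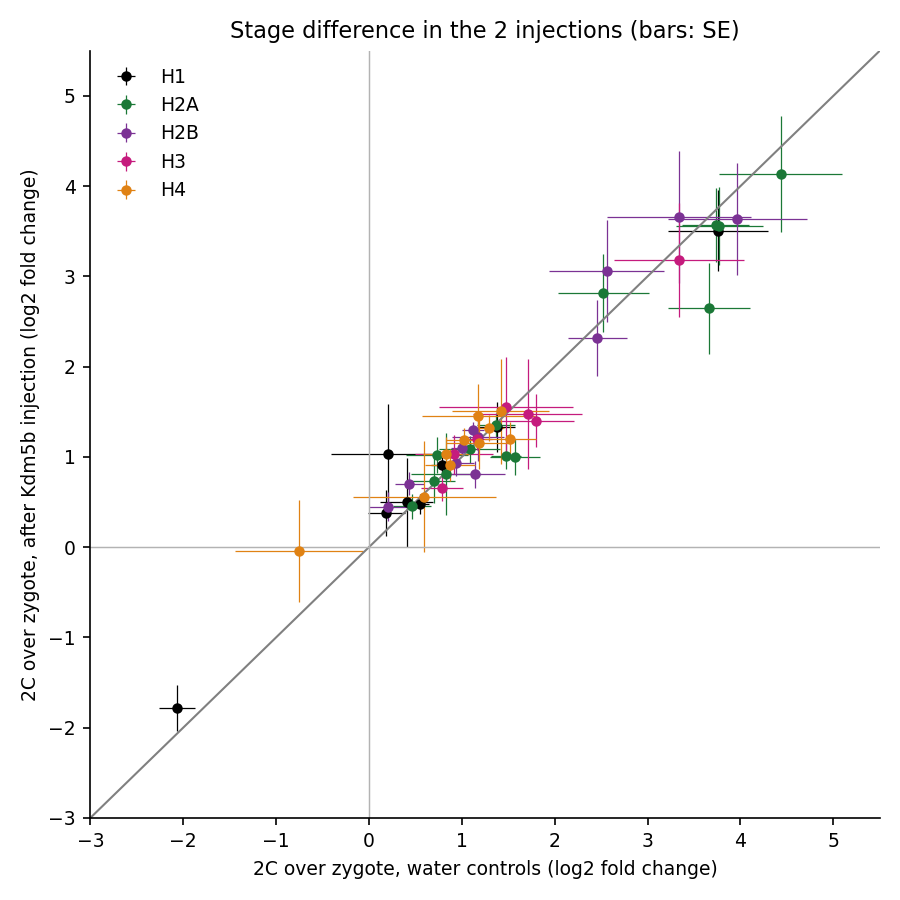
Log2 fold change of 2C samples over zygotes in water controls (x axis) and after Kdm5b injection (y axis) for the 49 members tested in both, coloured by histone type, with SE as bars and a line at equality. All points lie in the lower left or upper right quadrant, H1foo at -2.07 and -1.78 is the lowest, and a group of members lies above 2 in both. Some of that group did not pass the filter on low counts on the zygotes alone.

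By TPM of the counted fragments, the core histone genes divided their mRNA unequally, and few genes carried most of each type. H2A was led by Hist1h2aa, which encodes TH2A, a variant made in testis and oocyte. Hist1h2aa held 60.2% of the mean H2A TPM in control zygotes and 37.0% in control 2C samples. Hist1h2bk, Hist1h2bj and Hist1h2ba together held 76.3% of H2B TPM in control zygotes and 73.8% in control 2C samples. Hist1h3f held 74.7 and 71.5% of H3, and Hist4h4 held 42.9 and 46.7% of H4, followed by Hist1h4c with 32.6 and 29.4%. The number of H2A genes needed for 90% of H2A TPM was 6 in control zygotes and 8 in control 2C samples.

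Hist1h2aa stayed under the fold threshold in both arms while 10 other H2A genes were called higher in controls. Some of these 10 did not pass the filter on low counts on the zygotes alone, which favoured genes higher in 2C samples. The level of Hist1h2aa was 452 to 926 TPM in control zygotes, with a median of 687, and 372 to 1409 TPM in control 2C samples, with a median of 811. The groups overlapped, and the log2 fold change was 0.46 ± 0.20 (edgeR adjusted p = 0.0576). After Kdm5b injection it was 0.45 ± 0.14 (edgeR adjusted p = 0.00746), from a median of 876 TPM in zygotes to 1170 TPM in 2C samples, past the p threshold and under the fold threshold.

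Hist2h2ac showed the contrary pattern. It measured 1.61 to 45.4 TPM in control zygotes, with a median of 20.8, and 112 to 602 TPM in control 2C samples, with a median of 223. No sample overlapped, and the log2 fold change was 3.73 ± 0.36 (edgeR adjusted p = 4.56e-09). After Kdm5b injection it was 3.57 ± 0.41 (edgeR adjusted p = 5.94e-08), from a median of 16.9 to 169 TPM. Hist2h2ac lies on chromosome 3, and it became the third H2A gene by mean TPM in 2C samples of both injections, with 10.5% of H2A TPM in controls and 9.19% after Kdm5b injection.

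Hist1h2ac rose from 55.9 to 114 TPM in control zygotes to 138 to 339 TPM in control 2C samples, without overlap, with a log2 fold change of 1.48 ± 0.16 (edgeR adjusted p = 3.08e-08). Hist3h2a, on chromosome 11, had medians of 157 and 388 TPM and a log2 fold change of 1.37 ± 0.20 (edgeR adjusted p = 3.52e-06), with 8 of 9 control 2C samples above all control zygotes. After Kdm5b injection their log2 fold changes were 1.01 ± 0.14 and 1.35 ± 0.13 (edgeR adjusted p = 1.36e-06 and 6.47e-09).

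Hist1h2ba encodes TH2B, the H2B partner of TH2A, and is the neighbour of Hist1h2aa on chromosome 13. The exons of the pair face away from each other with 305 bases between them, so they share their upstream region. The 130 bases before Hist1h2aa in the RefSeq table, at chr13:23934307-23934436 on the plus strand, are printed with matches to the TATA box, CCAAT box and octamer letters in capitals, because they lie in the interval between the pair.
Hist1h2aa: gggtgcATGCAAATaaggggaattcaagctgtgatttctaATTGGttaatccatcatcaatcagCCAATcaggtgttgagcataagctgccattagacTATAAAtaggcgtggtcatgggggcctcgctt
Like its partner, Hist1h2ba differed little between the stages, with 207 to 509 TPM in control zygotes and 182 to 710 TPM in control 2C samples and a log2 fold change of 0.21 ± 0.21 (edgeR adjusted p = 0.434). After Kdm5b injection it was 0.45 ± 0.16 (edgeR adjusted p = 0.0202), under the fold threshold.

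The levels of the pair were compared sample by sample, a relation chosen after the values were seen. The p-values and their adjustment do not cover that choice. Over log2 TPM, Pearson's r was 0.786 and Spearman's rho 0.758 in the 10 control zygotes, with permutation p of 0.00714 and 0.0138 (two-sided, Benjamini-Hochberg adjusted 0.0276 and 0.0276 over 8 tests). In the 10 Kdm5b zygotes r was 0.903 and rho 0.782, with permutation p of 0.00126 and 0.0106 (adjusted 0.0101 and 0.0276). In the 9 control 2C samples r was 0.755 and rho 0.750, with exact permutation p of 0.0216 and 0.0255 (adjusted 0.0340 and 0.0340). In the 6 Kdm5b 2C samples r was 0.261 and rho 0.257, with exact permutation p of 0.594 and 0.658 (adjusted 0.658 and 0.658). Without the 2 samples farthest from the median of Hist1h2aa, r was 0.819, 0.758, 0.693 and 0.832 in these groups in turn. Histone genes of a sample share its library, and the median r of Hist1h2aa with the 34 other cluster genes of at least 20 TPM was 0.360 in control zygotes, 0.139 in Kdm5b zygotes, 0.472 in control 2C samples and -0.252 in Kdm5b 2C samples. None of the 34 exceeded the r with Hist1h2ba in either zygote group, while 6 did in control 2C samples and 11 in Kdm5b 2C samples. Within the 6 control 2C samples of index numbers 89 to 95, r was 0.743 and rho 0.771, with exact permutation p of 0.106 and 0.103. No other set of 8 index numbers held 6 samples of a group.

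Among H2B genes, Hist1h2bk was the most abundant, at 539 to 827 TPM in control zygotes and 807 to 1595 TPM in control 2C samples. Its log2 fold change was 1.00 ± 0.11 (edgeR adjusted p = 5.65e-08), just under the fold threshold before rounding. After Kdm5b injection it was 1.10 ± 0.09 (edgeR adjusted p = 3.33e-10), from 687 to 888 TPM in zygotes to 1252 to 1769 TPM in 2C samples, without overlap.

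Hist1h2bj rose from 357 to 579 TPM in control zygotes to 638 to 1208 TPM in control 2C samples, without overlap, and the log2 fold change was 1.12 ± 0.12 (edgeR adjusted p = 2.42e-08). With only the 6 intact single 2C controls it was 1.00, under the threshold before rounding, and with index numbers 85 to 87 only it was 0.83. After Kdm5b injection it was 1.30 ± 0.09 (edgeR adjusted p = 1.14e-11), the smallest p of any member in that comparison.

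Hist1h3f, the main H3 gene, rose from 345 to 583 TPM in control zygotes to 426 to 1377 TPM in control 2C samples, and 7 of the 9 were above all control zygotes. The log2 fold change was 1.16 ± 0.16 (edgeR adjusted p = 1.56e-06), and after Kdm5b injection 1.19 ± 0.12 (edgeR adjusted p = 6.05e-09). Hist1h3a had medians of 70.2 and 93.7 TPM in controls and a log2 fold change of 0.79 ± 0.23 (edgeR adjusted p = 0.00535), under the fold threshold. Hist1h3g had medians of 35.2 and 65.5 TPM, with control 2C replicate 3 at 0, and a log2 fold change of 0.91 ± 0.42 (edgeR adjusted p = 0.0735), which did not pass in controls, while after Kdm5b injection it was 1.03 ± 0.21 (edgeR adjusted p = 0.000226).

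Hist4h4, an isolated H4 gene on chromosome 6, rose from 433 to 1011 TPM in control zygotes to 959 to 2402 TPM in control 2C samples, 8 of 9 above all control zygotes. The log2 fold change was 1.29 ± 0.17 (edgeR adjusted p = 4.10e-07), and after Kdm5b injection 1.32 ± 0.14 (edgeR adjusted p = 1.99e-08). Hist1h4c rose from a median of 561 to 1168 TPM in controls, with a log2 fold change of 1.02 ± 0.20 (edgeR adjusted p = 9.49e-05). Hist1h4d varied widely within groups, from 10.4 to 390.4 TPM in control zygotes and from 7.31 to 720 TPM in control 2C samples, and its log2 fold change of 1.18 ± 0.61 did not pass (edgeR adjusted p = 0.108).

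Several genes that were low in zygotes had the largest differences, and those named in this paragraph other than Hist2h2ac and Hist1h1b were chosen after their values were seen. Hist1h2ai had mean levels of 2.17 TPM in control zygotes and 45.0 TPM in control 2C samples, a log2 fold change of 4.43 ± 0.66. For Hist1h2bb the means were 1.97 and 29.9 TPM, with a log2 fold change of 3.97 ± 0.75, and for Hist1h2ak 4.52 and 57.8 TPM, with 3.77 ± 0.47. After Kdm5b injection these 3 genes had log2 fold changes of 4.14, 3.64 and 3.56. In both arms they did not pass the filter on low counts on the zygotes alone. They were also picked for their size, so they are described with no test. Of the 91-base windows of the Hist1h2ai transcript, 88.8% also occur in a transcript of another gene, and 26 of the 71 members share over 50% of such windows. Fragments that map to several places were not counted, so levels of near-identical genes are uncertain. The highest share of such windows in a gene was 100% for H2A, 95.1% for H2B, 100% for H3, 88.5% for H4 and 26.0% for H1.

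**Figure D4:**
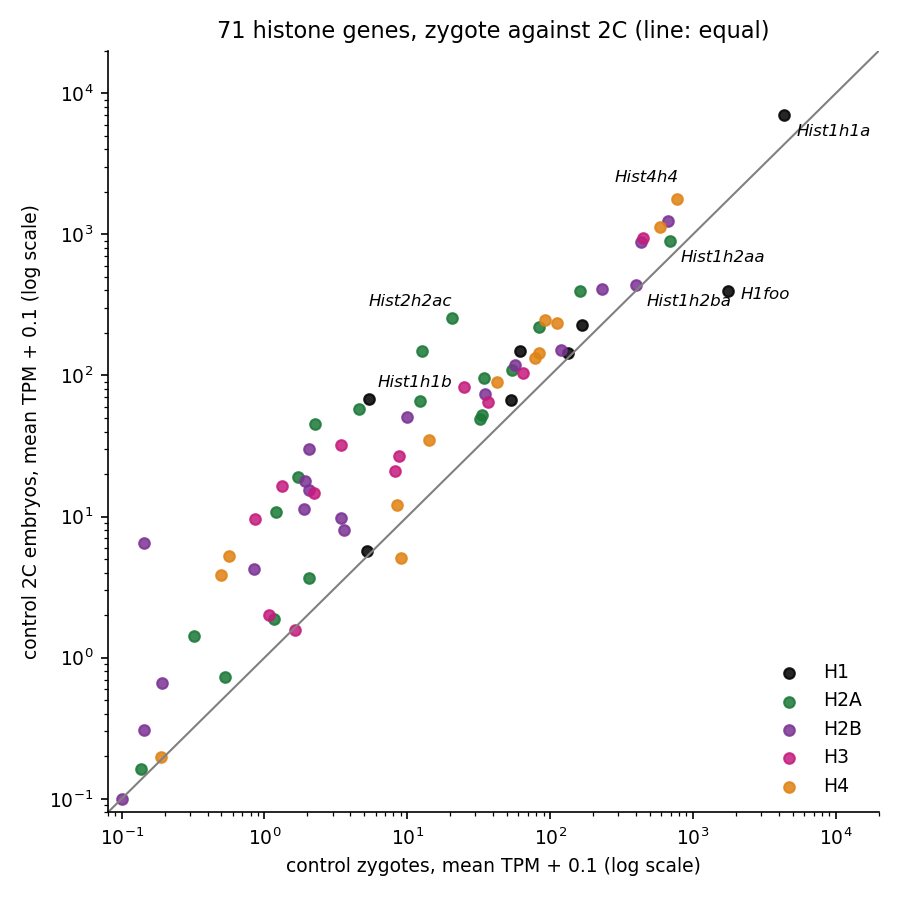
Mean TPM plus 0.1 of the 71 members in control zygotes (x axis, log scale) and control 2C samples (y axis, log scale), coloured by histone type, with a line at equality. Most genes lie above the line, many genes low in zygotes lie far from it, Hist1h2aa and Hist1h2ba lie close to it, and H1foo lies farthest below it.

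Kdm5b injection changed no member past the thresholds at either stage. In zygotes, 43 members were tested, and 0 were called higher or lower by edgeR, against 0.00838% of 11933 genes called higher and 0% called lower. The median log2 fold change of the 43 was 0.22, beside 0.01 over all genes, and 34 of the 43 estimates were above 0. At an unadjusted p under 0.05, 10 of 43 members were higher and 0 lower in Kdm5b zygotes, against 4.74% of all genes higher and 5.60% lower. DESeq2's Wald test also called 0 members. Members share libraries and are not independent of each other, so these counts carry no test of the group.

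Hist1h2bk had the smallest p among the members in zygotes. Its level was 539 to 827 TPM in control zygotes, with a median of 643, and 687 to 888 TPM in Kdm5b zygotes, with a median of 787. The ranges overlapped, with 4 of 10 Kdm5b zygotes above all controls, and the log2 fold change was 0.27 ± 0.07 (unadjusted p = 0.00061, edgeR adjusted p = 0.111). Hist1h2aa had a log2 fold change of 0.36 ± 0.12 and Hist1h2ac of 0.41 ± 0.12 (edgeR adjusted p = 0.256 and 0.191). Hist1h1a was 0.19 ± 0.08 and H1foo 0.02 ± 0.11 (edgeR adjusted p = 0.387 and 0.971).

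Among 2C samples, 57 members were tested and 0 were called in either direction by edgeR, against 0% of 12244 genes called higher and 0.00817% called lower. The median log2 fold change was 0.18, beside 0.00 over all genes, with 37 of 57 estimates above 0. At an unadjusted p under 0.05, 4 members were higher and 1 lower, against 4.50 and 4.91% of all genes, and DESeq2's Wald test called 0 members. Kdm5b 2C samples carry index numbers 81 to 84, 88 and 92, and control 2C samples 85 to 87, 89 to 91 and 93 to 95. Injection and set of index numbers are thus partly confounded in this comparison. With the set of 8 index numbers as a covariate, 1 member was called, Hist1h2ah, at a log2 fold change of 1.36 (edgeR adjusted p = 0.0438), which is named because of this count. Hist1h2bk and Hist4h4 had log2 fold changes of 0.61 and 0.73 in that fit (edgeR adjusted p = 0.0303 and 0.0317), under the fold threshold.

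The smallest p among members in 2C samples was that of Hist1h2an, with 42.6 to 273 TPM in control 2C samples and 28.0 to 122 TPM in Kdm5b 2C samples. The ranges overlapped, all 6 Kdm5b samples were under the control mean of 150 TPM, and the log2 fold change was -1.09 ± 0.37 (unadjusted p = 0.00767, edgeR adjusted p = 0.353). Of its 91-base windows, 83.8% are shared with another gene. H1foo differed by 0.32 ± 0.30, Hist1h1a by 0.33 ± 0.13 and Hist1h1b by -0.72 ± 0.38 on the log2 scale (edgeR adjusted p = 0.819, 0.420 and 0.579).

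**Figure D5:**
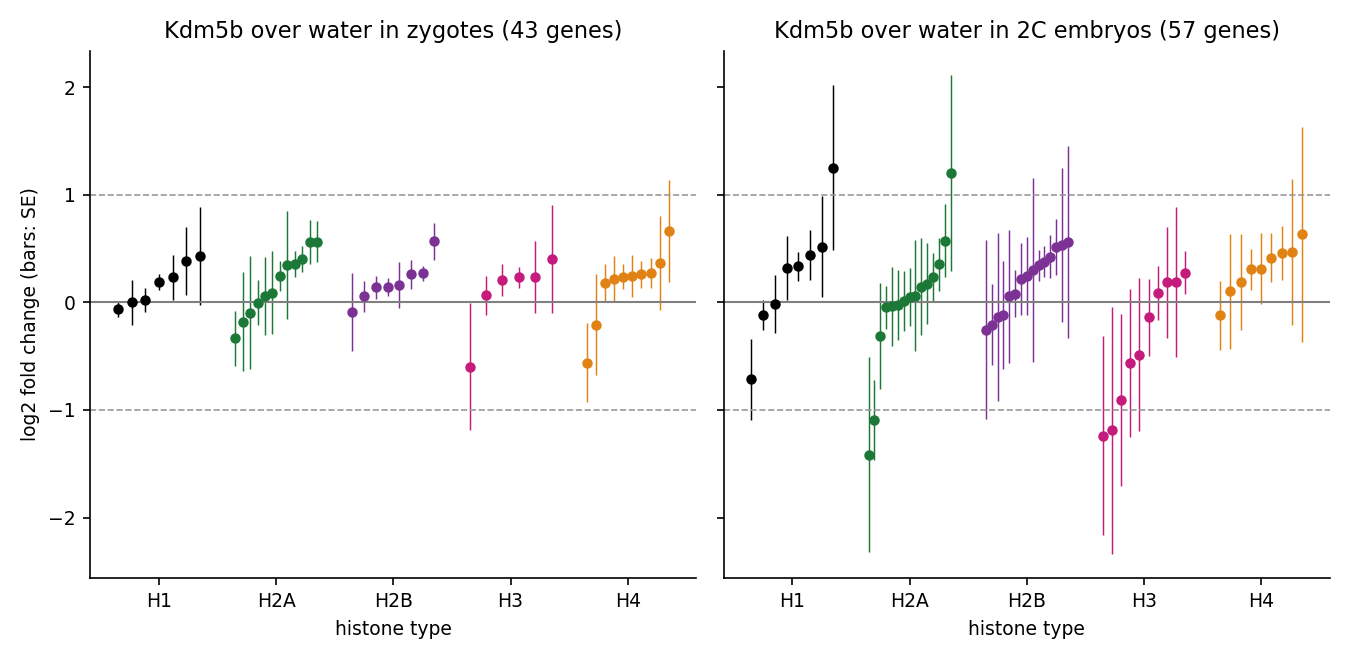
Log2 fold change of Kdm5b over water in zygotes (left, 43 members) and in 2C samples (right, 57 members), sorted by value within each histone type on the x axis, with SE as bars and dashed lines at 1 and -1. The zygote estimates lie between -0.60 and 0.66, the 2C estimates between -1.42 and 1.25, and no member passed the adjusted threshold.

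Whether the stage difference depended on the injection was tested as an interaction over all 35 samples. Of 60 members tested, 0 passed an adjusted p of 0.05 in edgeR, against 0.109% of 13778 genes, 1 had an unadjusted p under 0.05, and DESeq2's Wald test called 0. The smallest adjusted p was 0.534, for Hist1h2ac, with a difference of -0.45 ± 0.22 on the log2 scale. For H1foo the difference was 0.30 ± 0.31 and for Hist1h1a 0.14 ± 0.15 (edgeR adjusted p = 0.851 and 0.858).

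Of 21 genes that process or degrade histone mRNA, 4 were called higher and 3 lower in control 2C samples, against 9.20 and 13.0% of all genes. After Kdm5b injection 3 were called higher and 5 lower, against 10.5 and 16.0%. The difference of these counts from those shares was not tested. Ncbp1, the large subunit of the cap binding complex, had a log2 fold change of 3.04 ± 0.34 in controls and Upf1, a helicase used in histone mRNA decay, of 1.07 ± 0.13 (edgeR adjusted p = 4.07e-08 and 1.93e-07). Cpsf3, the endonuclease that cleaves histone pre-mRNA, was lower, at a mean of 88.1 TPM in control zygotes and 20.7 TPM in control 2C samples (edgeR adjusted p = 3.35e-08). Eri1, a nuclease that trims the stem-loop end, was lower at -1.30 ± 0.14 (edgeR adjusted p = 4.14e-08). Slbp, which encodes the stem-loop binding protein and is named here after its values were seen, had a log2 fold change of -0.93 ± 0.22 in controls (edgeR adjusted p = 0.000821), under the fold threshold, and of -1.18 ± 0.20 after Kdm5b injection (edgeR adjusted p = 1.60e-05). Its 2C samples ranged from 378 to 1948 TPM in controls.

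Of 9 genes for histone gene transcription, 2 were called higher and 1 lower at both injections, beside the same shares of all genes. Npat, the coactivator of histone genes, had log2 fold changes of 1.53 ± 0.16 in controls and 1.05 ± 0.16 after Kdm5b, and Ccne1, the cyclin that acts with CDK2 on NPAT, of 2.79 ± 0.33 and 2.66 ± 0.22. Cdc25a, a phosphatase that activates CDK2, was lower at -1.19 ± 0.13 and -1.53 ± 0.14. All 6 differences had an edgeR adjusted p of at most 4.04e-06.

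Of 10 replacement histone genes tested, which are made outside S phase too, 3 were called higher and 0 lower in control 2C samples, and 2 higher and 3 lower after Kdm5b injection, beside the same shares of all genes (9.20 and 13.0% in controls, 10.5 and 16.0% after Kdm5b). H2afz, encoding H2A.Z, rose from a mean of 12.3 to 73.5 TPM in controls (log2 fold change 2.66 ± 0.29), H2afx, encoding H2A.X, from 135 to 290 TPM (1.19 ± 0.21) and Cenpa, the centromeric H3, from 50.6 to 97.8 TPM (1.04 ± 0.16), with edgeR adjusted p of 2.46e-08, 3.09e-05 and 6.30e-06. H3f3a, which encodes H3.3, was called lower after Kdm5b injection, at -1.14 ± 0.11 (edgeR adjusted p = 6.84e-09). In controls it was lower too, at -0.71 ± 0.15 (edgeR adjusted p = 0.000388), under the fold threshold. H3f3b, the other H3.3 gene, is named here after its values were seen. Its means were 953 and 965 TPM in control zygotes and control 2C samples, and 969 and 971 TPM after Kdm5b injection. In the comparisons of Kdm5b with water, 0 genes of these 3 lists were called by edgeR at either stage, and 1, Sympk, had an adjusted p of 0.0175 in zygotes at a log2 fold change of -0.39. At an unadjusted p under 0.05 the 3 lists had 5, 1 and 3 genes in zygotes and 1, 2 and 0 in 2C samples, where 4.74 and 5.60% of all genes were higher and lower in zygotes and 4.50 and 4.91% in 2C samples.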

How the data were processed

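The authors deposited a table of raw counts, the fragments assigned to each of 24480 RefSeq genes by featureCounts 1.5.1 with strand, after trimming with fastp 0.21.0 and alignment to GRCm38 with STAR 2.7.3a. Fragments mapping to several places were not counted. A second deposited table, on repeats, was not used here, and 0 columns belonged to no known sample. TPM used the exon lengths of the table. After removal of the Kdm5b row, as in the study's methods, a separate model of only the 2 groups compared was fitted in edgeR 4.0.16, run under R 4.3.3 (TMM, filterByExpr with a minimum count of 10, quasi-likelihood test, Benjamini-Hochberg adjustment over all genes), and the interaction on all 35 samples. SE is the absolute log2 fold change divided by the root of F. A gene was called at an adjusted p below 0.05 with a change of more than 1 on the log2 scale. The fit was tested on simulated data.

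The members and gene lists were chosen with earlier results of these data known. Named were all detected H1 genes, the 3 most abundant genes of each core type, and per comparison the 3 called members of smallest p in each direction, or the member of smallest p where none was called, and of each context list some of the 4 called genes of smallest p per comparison. Genes named outside this rule are marked in the text. Alternatives were DESeq2 1.42.0, its size factors, 2 other count filters, the Kdm5b row kept, no fold threshold, a fit on all samples, the replicate number as a block, omission of each sample, intact single embryos, and index sets. Replicate samples differed by more than counting noise. The labels do not say which embryos shared a mother, so p-values measure only the spread between samples. Permutation tests used scipy 1.17.1 with 100000 resamples for 10 samples and were exact below that, with numpy 2.4.6 and pandas 2.3.3 in Python 3.11.15, and figures matplotlib 3.10.9.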

Additional observations from a re-analysis of the deposited data

Results flagged for a closer look

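The TPM of the 22 named members and 5 sums by histone type, 27 sets of values in each of the 4 groups, were examined for a sample far from the others and 12 such values were found in 10 samples, where chance alone marks about 1 in 20 sets. H1f0 stood at 320.8 TPM in control 2C replicate 3 and at 272.8 TPM in Kdm5b 2C replicate 4, each the highest of its group. Control 2C replicate 1 was highest for Hist1h1d at 257.8 TPM and Hist1h1e at 148.7 TPM, and Kdm5b 2C replicate 1 for Hist1h1c at 324.1 TPM and Hist1h1e at 339.1 TPM. In Kdm5b zygotes, Hist1h1e reached 252.4 TPM in replicate 8, Hist1h1b 11.32 TPM in replicate 2 and Hist3h2a 280.8 TPM in replicate 1. Hist1h4d was at 390.4 TPM in control zygote replicate 9 and 719.5 TPM in control 2C replicate 4, and Hist2h2ac at 601.7 TPM in control 2C replicate 6. Whether 12 such values are more than chance gives, and what these samples share, was not tested.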

How the results depend on the processing

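In the stage comparisons, the count of members called higher ranged over other normalizations, tests, filters, thresholds and sample sets from 21 to 38 in water controls, against 29, and from 23 to 44 after Kdm5b injection, against 34. H1foo stayed the 1 member called lower under every alternative of both. Leaving out each sample gave 26 to 35 and 29 to 34 members called higher, always 1 called lower, and 0 members called for Kdm5b in zygotes or in 2C samples in either direction. Of alternatives chosen after seeing the data, control 2C index numbers 85 to 87 only gave 16 members called higher, index numbers 89 to 95 gave 37, and leaving out control 2C replicates 2 and 3 gave 38. These fits held different numbers of 2C samples. The shares of all genes called in them or under the other alternatives are not given here, so the counts show no effect particular to histone genes. For Kdm5b in 2C samples, the set of 8 index numbers as a covariate gave 1 member called higher, against 0, the cause of which was not tested. All other alternatives for Kdm5b and for the interaction gave 0 in each direction. With the replicate number as a block the stage counts were 23 and 29 members higher and 1 lower in each, and 0 for Kdm5b and the interaction. The numbers did not pair the samples, since correlations of same-numbered deviations ran from -0.271 to 0.107. Hist1h2bj in controls fell to 1.00 and 0.83 on the log2 scale, losing its call, with intact single embryos and with index numbers 85 to 87 only. The other 9 results for single genes that answered a comparison kept direction and call under all alternatives, and CPM with TMM in place of TPM reversed 0 of 22 ratios. DESeq2's Wald test moved the median of all genes to 0.13 and 0.15 on the log2 scale in the stage comparisons, where those of the members were 1.21 and 1.22, and 0 members past the adjusted p changed direction under another scaling. Depth of 8705584 to 17797581 counts limits genes of a few TPM, such as Hist1h1t, most.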
